A study of Mus musculus with 8 samples.

Results

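The genes described here are the B7 family ligands Cd80, Cd86, Cd274, Pdcd1lg2 and Icosl, the B7-related regulator Cd200, and the dendritic cell maturation genes Cd83 and Fscn1, as measured in splenic conventional dendritic cells. Every probe set whose platform symbol was one of these 8 genes was taken, which gave 16 of the 45101 probe sets on the array, for 8 of 18193 named genes. All 8 genes had a probe set that passed a filter of log2 5 or more on at least 2 of the 8 arrays, as did 11 of the 16 probe sets. The cells came from the spleens of untreated female C57BL/6 mice, 10 weeks old per the labels (the series text gives a range of 8 to 10 weeks), which were wild type or RAG2-/- and were sorted as CD8α+ or CD8α-. Each of the 4 groups had 2 arrays. RAG2-/- mice lack the recombinase needed to assemble antigen receptors and so have no mature T or B lymphocytes, and the study asked how those lymphocytes bear on antigen presentation by dendritic cells. The labels do not say whether the 2 arrays of a group came from separate mice or pools, so the p-values measure only the spread between these arrays, which may be technical.

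B7 proteins sit on antigen-presenting cells and set how a T cell responds to the antigen it sees. CD80 and CD86 bind CD28, which activates, and CTLA-4, which inhibits. ICOSL binds ICOS, while PD-L1 (Cd274) and PD-L2 (Pdcd1lg2) bind the inhibitory receptor PD-1. CD200 binds an inhibitory receptor of myeloid cells, CD83 is a surface marker of mature dendritic cells that protects CD86 and MHC class II from degradation, and fascin (Fscn1) bundles actin in the dendrites of mature dendritic cells. Resting B lymphocytes also carry CD200 and ICOSL, and activated B cells also carry CD83 and CD86.

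Values are log2 expression per probe set as normalized by the authors, and errors are the SD of the 2 arrays of a group (n = 2) or the SE of the linear model. The knockout arrays shared a lowest value of 2.23, held by 18217 to 18893 probe sets on each, and no wild type array had a shared lowest value. The genotypes were thus evidently normalized apart, and each level set across genotypes below carries that difference in processing. The sort was visible in the lineage markers, since 8 of 9 tested CD8α+ dendritic cell markers were higher and 9 of 9 tested CD8α- markers were lower in CD8α+ cells of either genotype. Some subset markers also differed by genotype. Knockout CD8α- cells had 4 of the 9 CD8α+ markers called higher, knockout CD8α+ cells had 2, and 0 were lower. The log2 of that list's summed level was 13.05 and 14.01 on knockout CD8α- arrays, against 12.25 and 12.64 on those of wild type. Calls for CD8α- markers went either way, with 4 higher and 1 lower in knockout CD8α- cells, and 4 and 3 in knockout CD8α+ cells. Of all genes tested, 23.4% were higher and 17.1% lower in knockout CD8α- cells, and 20.8% and 16.1% in knockout CD8α+ cells. The 2 of 9 CD8α+ markers called higher in knockout CD8α+ cells were thus near the share of all genes. How these marker differences bear on the genotype changes below was not tested. All 9 conventional dendritic cell markers were at 5 or more on every array. Of these, 5 were higher in knockout than in wild type CD8α- cells and 3 in CD8α+ cells, and 0 were lower, beside the same shares of all genes. Rag2 was between 2.49 and 3.63 on all arrays and so checked nothing about the genotype.

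Transcripts of other cells differed between the genotypes and between arrays. Of 10 tested B cell markers 7 were lower in the knockout in CD8α- cells and 7 in CD8α+ cells, and the log2 of the list's summed level was 13.90 to 14.28 in wild type against 13.34 to 13.54 in the knockout for CD8α- cells, and 13.53 to 13.80 against 12.45 to 12.67 for CD8α+ cells. The largest called changes of the list were those of Jchain and Igha. Jchain fell at least 38.7-fold in CD8α- cells (limma, adjusted p = 0.000414) and changed by -4.26 (SE 0.54, 0.00224) in CD8α+ cells. Igha fell at least 19.3-fold (0.000427) and at least 15.9-fold (0.0007545). No other setting was run for these 2 genes. Cd79a and Pax5 of the same list were below 3 on every array, while Ms4a1 stood at 10.15 to 11.05 in wild type and 5.81 to 7.62 in the knockout. Of 9 tested splenic macrophage markers 9 were higher in knockout CD8α- cells and 8 in knockout CD8α+ cells, with sums of 12.20 to 12.87 in wild type and 13.33 to 14.59 in the knockout. Of the T cell list 2 of 10 genes could be tested, Cd5 and Cd2, and both were lower in knockout CD8α+ cells, Cd5 by -1.64 (SE 0.46, limma, adjusted p = 0.0301) and Cd2 by at least 1.29-fold (0.0204), being below 5 there. Cd3d stood at 4.22 to 5.56 in wild type and 2.23 on each knockout array, Cd3e and Cd3g were below 4 on every array, and the sum of the list was 8.39 to 8.44 in wild type CD8α- cells and 7.58 to 7.94 in CD8α+ cells, against 7.56 to 7.89 and 6.28 to 6.80 in the knockout. Between the subsets, 1 B cell marker was higher and 2 lower in CD8α+ cells of wild type and 3 and 2 in the knockout, and 2 and 3 macrophage markers were lower. Of all genes tested, 9.23% were higher and 7.87% lower between the wild type subsets, and 11.1% and 10.7% between those of the knockout. Neutrophil markers stood apart on knockout CD8α- replicate 2 and knockout CD8α+ replicate 1, with sums of 13.03 and 11.60 against 5.94 to 6.70 on the other 6 arrays, and Ngp reached 11.65 and 10.18 there. Many results that rest on the knockout arrays are therefore also given without these 2, where the lone array left in each knockout group is assumed to vary like the wild type groups. Where no such value is given, the result is not to be read as kept without them. No other setting was run for Cd5 or Cd2.

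**Figure D1:**
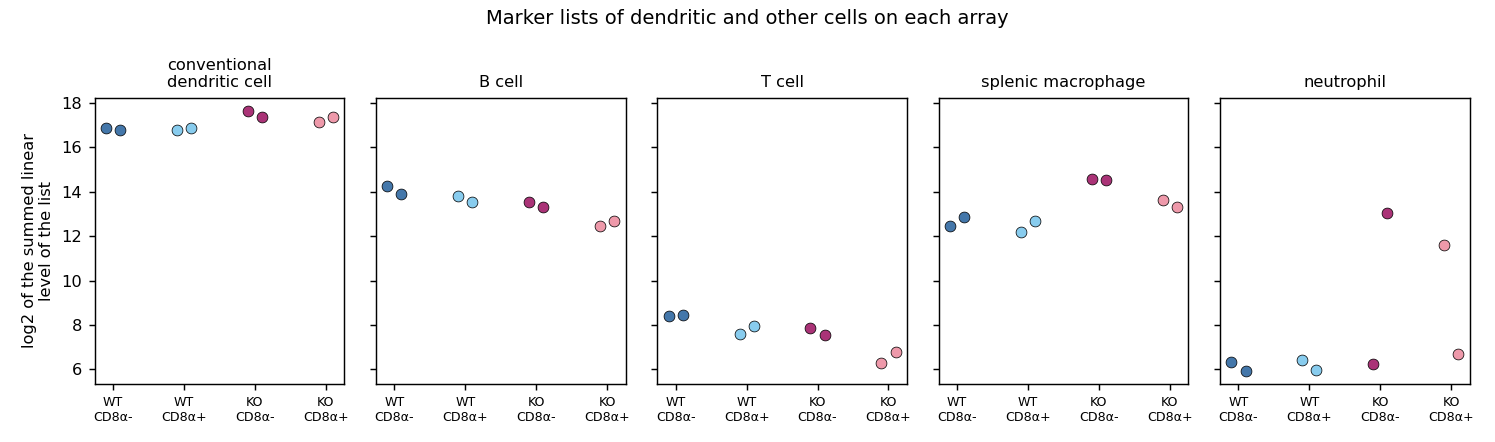
Log2 of the summed linear level of each marker list (vertical axis) on each of the 8 arrays (points), by group. Conventional dendritic cell markers are at 16.8 to 16.9 in wild type and 17.1 to 17.6 in the knockout. B cell markers are lower and macrophage markers higher in the knockout, and neutrophil markers are high on 2 of the 4 knockout arrays.

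The costimulatory ligand Cd86 was higher in CD8α+ cells, and the inhibitory ligands Cd274 and Pdcd1lg2 and the ICOS ligand Icosl were lower there, in both genotypes. Cd80, which binds the same receptors as Cd86, was also lower there, with a call in the knockout alone. In wild type 4 of the 8 genes were called, as were 17.1% of the 8763 genes tested (14.1% of 14603 probe sets, each on its own), with 1 higher in CD8α+ cells (9.23% of all genes) and 3 lower (7.87%). In the knockout 6 of 8 were called, against 21.8% of all genes (17.6% of probe sets), with 2 higher (11.1%) and 4 lower (10.7%). The median log2 difference of the 8 genes was -0.42 in wild type and -0.33 in the knockout, against 0.01 and 0.02 over all genes tested. On 7 of 8 genes in wild type and 8 of 8 in the knockout the arrays of the subsets did not overlap, as was also so for 60.7% and 58.1% of all genes. In these sorted populations, fewer cells that make a transcript and less of it per cell cannot be told apart. Without any 1 of the 4 wild type arrays the wild type count was 2, and without knockout CD8α+ replicate 2 the knockout count was 3.

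**Figure D2:**
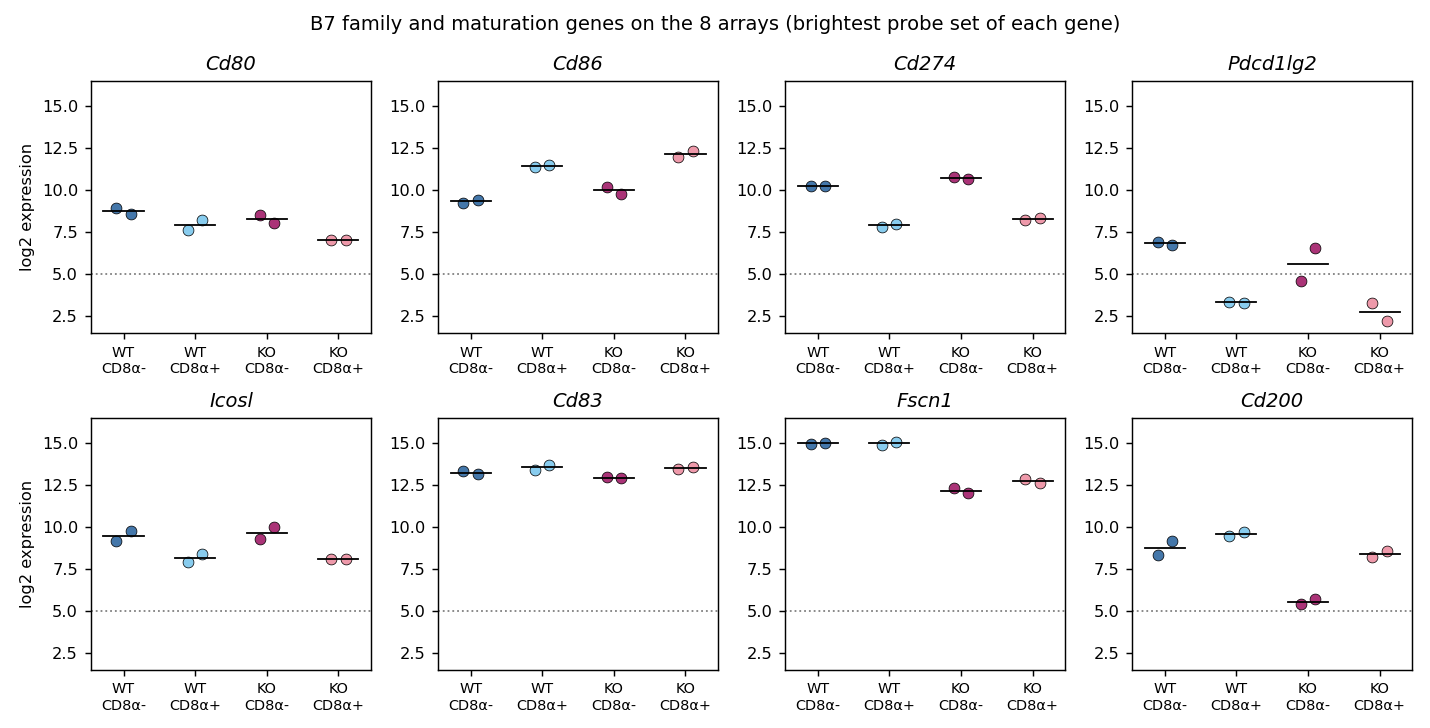
Log2 expression (vertical axis) of the brightest probe set of each of the 8 genes on each array (points), with the group mean as a line and the filter level of 5 dotted. Cd86 is high in both CD8α+ groups, Cd274, Pdcd1lg2 and Icosl are low there, and Fscn1 and Cd200 are lower in the knockout groups than in wild type.

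Cd86, a ligand of CD28 and CTLA-4, read 9.27 and 9.45 (CD8α-) and 11.37 and 11.49 (CD8α+) on the wild type arrays, and 10.18 and 9.80 (CD8α-) and 11.99 and 12.32 (CD8α+) on those of the knockout. The order from the top was knockout CD8α+, wild type CD8α+, knockout CD8α- and wild type CD8α-, with no overlap between neighbours. Cd86 rose by 2.07 (SE 0.21, limma, adjusted p = 0.000789) in CD8α+ against CD8α- cells in wild type and by 2.16 (SE 0.21, adjusted p = 0.000641) in the knockout, a 4.21-fold and a 4.47-fold difference. Its other probe set gave larger differences of 2.99 (SE 0.27, adjusted p = 0.000844) and 2.61 (SE 0.27, adjusted p = 0.00127), each probe set tested on its own, and correlated with the first at r = 0.97 over the 8 arrays, which share the 4 groups. Without the 2 arrays with neutrophil transcripts the knockout difference was 2.13 (adjusted p = 0.0123).

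Cd80, the second ligand of CD28 and CTLA-4, ran the other way. Its wild type readings were 8.97 and 8.58 (CD8α-) and 7.63 and 8.22 (CD8α+), and its knockout readings 8.54 and 8.05 (CD8α-) and 7.06 and 7.05 (CD8α+). The subsets did not overlap in either genotype, but the neighbouring wild type CD8α+ and knockout CD8α- groups did. The difference of -1.24 (SE 0.28, limma, adjusted p = 0.0195) was called in the knockout, while that of -0.85 (SE 0.28, adjusted p = 0.0809) in wild type was not, and the difference between these 2 gaps was -0.38 (95% interval -1.30 to 0.54, adjusted p = 0.887). The knockout call was lost when CD8α- replicate 1 (-0.99, adjusted p = 0.0972) or either of the CD8α+ arrays (-1.24 and -1.23, 0.0839 and 0.0803) was left out, and without both arrays with neutrophil transcripts (-1.49, 0.0817). A dimmer Cd80 probe set, at 4.67 to 6.26, gave -0.26 (SE 0.27) and -0.27 (SE 0.27), uncalled in both genotypes. The other 2 stayed between 2.23 and 2.66 on every array and so carried no level of the gene.

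Cd274, which encodes PD-L1, had the tightest replicates of the 8 genes, with at most 0.18 between the arrays of a group. Wild type gave 10.28 and 10.27 (CD8α-) and 7.83 and 8.01 (CD8α+). The knockout gave 10.79 and 10.69 (CD8α-) and 8.21 and 8.35 (CD8α+), so that each of the 4 groups was apart from its neighbours in the order. The subset difference was -2.36 (SE 0.17, limma, adjusted p = 0.000192) in wild type and -2.46 (SE 0.17, adjusted p = 0.000156) in the knockout, 5.12-fold and 5.50-fold lower in CD8α+ cells. Leaving out any 1 array kept both calls (adjusted p at most 0.00490), as did leaving out both arrays with neutrophil transcripts (-2.44 in the knockout, 0.00863). The gaps in the 2 genotypes differed by -0.10 (95% interval -0.66 to 0.45, adjusted p = 0.958).

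Pdcd1lg2, which encodes the second PD-1 ligand PD-L2 and follows Cd274 on mouse chromosome 19 in RefSeq's annotation of GRCm38.p6, had the same direction. Wild type read 6.94 and 6.76 (CD8α-) and, below the level of 5, 3.32 and 3.31 (CD8α+). In the knockout the CD8α- arrays stood far apart, at 4.62 and 6.58, and the CD8α+ arrays were below 5 at 3.30 and 2.23. Taken against a level of 5, CD8α+ cells had at least 3.61-fold less of it in wild type (limma, adjusted p = 0.00809) and at least 1.52-fold less in the knockout (adjusted p = 0.0173). The wild type call was lost without any 1 wild type array (adjusted p 0.0545 to 0.0722). The knockout call was lost without CD8α+ replicate 2 (-2.30, adjusted p = 0.0971) and with values below 5 set to 5 (-0.79, adjusted p = 0.272), and without both arrays with neutrophil transcripts the values left, 4.62 and 2.23, were both below 5 and gave no fold. The knockout bound rests on CD8α- replicate 2 at 6.58, an array with neutrophil transcripts, since replicate 1 was itself below 5. The part of those transcripts in that value was not tested.

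The 250 bases before the start that RefSeq's promoter table gives for Cd274 (chr19:29367188-29367437, plus strand, GRCm38.p6) and of Pdcd1lg2 (chr19:29410669-29410918, plus strand) are shown because both of these neighbouring genes were lower in CD8α+ cells. Capitals mark matches on either strand to the motifs searched, which were NF-kB (GGGA, any 4 bases, then CC; matches to different motifs may overlap), AANNGAAA (interferon regulatory factors), TTCNNNGAA (STAT), TGANTCA (AP-1) and TGACGTCA (CREB).
Cd274: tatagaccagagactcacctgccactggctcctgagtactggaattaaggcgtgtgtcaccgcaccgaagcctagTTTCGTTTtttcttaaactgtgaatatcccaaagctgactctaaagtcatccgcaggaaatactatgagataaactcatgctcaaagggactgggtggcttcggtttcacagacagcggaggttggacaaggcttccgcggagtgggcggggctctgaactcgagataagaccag
Pdcd1lg2: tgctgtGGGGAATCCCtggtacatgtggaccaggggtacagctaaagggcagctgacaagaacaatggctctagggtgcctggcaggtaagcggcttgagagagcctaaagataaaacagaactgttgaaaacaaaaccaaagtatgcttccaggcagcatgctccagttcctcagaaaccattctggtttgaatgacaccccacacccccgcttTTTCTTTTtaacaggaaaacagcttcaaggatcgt
Both hold 1 AANNGAAA match, 175 bases before the start in Cd274 and 35 in Pdcd1lg2, as do 21.3% of 32851 promoter windows of this length. The windows of Icosl and Cd80, also lower in CD8α+ cells, hold 0 AANNGAAA matches, and that of Cd200, higher there, holds 1. The shared match thus did not follow the direction of the difference. Pdcd1lg2 also holds 1 NF-kB match, 244 bases before the start, which 17.6% of windows hold. Icosl and Cd80 hold 1 NF-kB match each. These matches describe the letters in the windows and do not show that a factor binds there.

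Icosl, the ligand of ICOS, was the fourth ligand that was lower in CD8α+ cells. The wild type arrays gave 9.17 and 9.73 (CD8α-) and 7.91 and 8.41 (CD8α+), and the knockout arrays 9.27 and 9.98 (CD8α-) and 8.11 and 8.08 (CD8α+). The subsets were apart in both genotypes and the genotypes overlapped in both subsets. The difference was -1.29 (SE 0.31, limma, adjusted p = 0.0304) in wild type and -1.53 (SE 0.31, adjusted p = 0.0140) in the knockout. The wild type call was lost without any 1 of the wild type arrays (adjusted p 0.0649 to 0.185) or either knockout CD8α+ array (0.0567 and 0.0568). The knockout call was lost when CD8α- replicate 2 (-1.18, 0.0523) or either of the CD8α+ arrays (-1.55 and -1.52, 0.0668 and 0.0673) was left out, and without both arrays with neutrophil transcripts (-1.19, 0.136). A second Icosl probe set was at 2.23 to 2.75 on every array and carried no level.

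The 2 maturation genes were bright in all groups and were not called between the subsets. Cd83 read 13.30 and 13.16 (CD8α-) and 13.39 and 13.70 (CD8α+) in wild type, and 12.97 and 12.91 (CD8α-) and 13.48 and 13.57 (CD8α+) in the knockout. The CD8α+ arrays were above the CD8α- arrays of their genotype, by 0.32 (SE 0.18, limma, adjusted p = 0.302) and 0.58 (SE 0.18, adjusted p = 0.0592). The knockout difference passed under quantile normalization (0.65, adjusted p = 0.0422), limma-trend (0.58, 0.0200), an offset of 16 (0.58, 0.0473) and a floor of 5 (0.58, 0.0481). Fscn1 read 14.95 and 14.99 (CD8α-) and 14.90 and 15.06 (CD8α+) in wild type, which overlapped, with a difference of 0.01 (95% interval -0.42 to 0.44; -0.033 with arrays centred on the tested genes). In the knockout it read 12.29 and 12.02 (CD8α-) and 12.83 and 12.63 (CD8α+), a difference of 0.57 (SE 0.18, limma, adjusted p = 0.0640) that limma-trend called (0.0205). That difference was 0.34 without both arrays with neutrophil transcripts.

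Cd200 was higher in CD8α+ cells, with a call in the knockout. On wild type arrays it was 8.34 and 9.17 (CD8α-) and 9.45 and 9.71 (CD8α+), and on knockout arrays 5.39 and 5.71 (CD8α-) and 8.19 and 8.58 (CD8α+). Knockout CD8α- cells were the lowest group by more than 2 log2 units, and the wild type CD8α- and knockout CD8α+ groups overlapped. The difference was 0.82 (SE 0.31, limma, adjusted p = 0.123) in wild type and 2.84 (SE 0.31, adjusted p = 0.000958) in the knockout, 7.15-fold, and was 3.20 (adjusted p = 0.0235) without the arrays with neutrophil transcripts. With the replicate number as a block the wild type difference passed (adjusted p = 0.0462). The gap in the knockout exceeded that in wild type by 2.01 (95% interval 0.99 to 3.04), which had an unadjusted p of 0.00236 and an adjusted p of 0.245 over all genes and so was not called. None of the 8 genes was called for the difference between the gaps by limma, where 1 of 8 had an unadjusted p under 0.05 and 0.24% of all genes were called, 0.0799% higher and 0.16% lower (0.0548% of probe sets, each on its own).

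**Figure D3:**
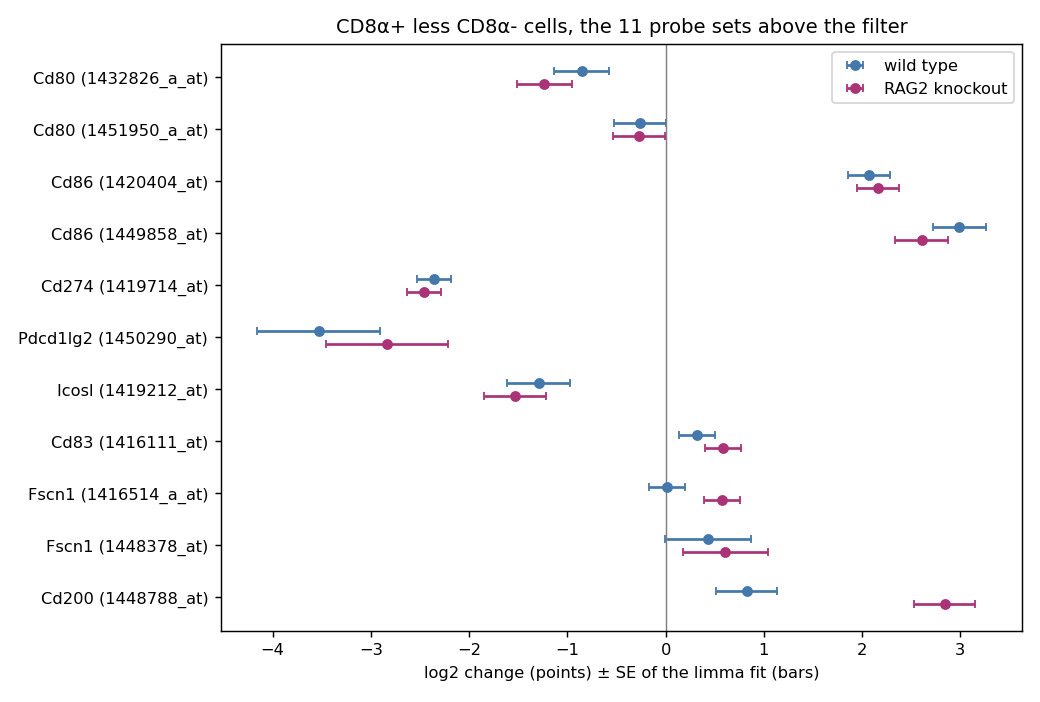
Log2 difference between CD8α+ and CD8α- cells (horizontal axis, points) with the SE of the limma fit (bars) for the 11 probe sets above the filter, in wild type and knockout. Both Cd86 probe sets lie at 2.07 to 2.99, and Cd274 lies at -2.36 and -2.46. The genotypes differ most in Cd200, at 0.82 and 2.84.

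Between genotypes, Fscn1 and Cd200 were lower in knockout dendritic cells of both subsets. In CD8α- cells 3 of the 8 genes were called, against 40.5% of all genes tested (37.6% of probe sets, each on its own), with 1 higher in the knockout (23.4% of all genes) and 2 lower (17.1%). In CD8α+ cells 4 of 8 were called, against 36.9% of all genes (35.8% of probe sets), with 1 higher (20.8%) and 3 lower (16.1%). These counts are near the shares of all genes. The split depended on scaling: with arrays centred on the median of all probe sets, which raises the median change of all genes from 0.14 to 0.80 in CD8α- cells and from 0.09 to 0.76 in CD8α+ cells, 2 genes were higher and 2 lower in CD8α- cells and 3 higher and 1 lower in CD8α+ cells, and with arrays centred on the tested genes 0 and 2, and 0 and 3. The 4 comparisons share arrays in pairs, so their values are given side by side. The median log2 change of the 8 genes was -0.39 and -0.31, against 0.14 and 0.09 over all genes. On 7 of 8 genes in CD8α- cells and 6 of 8 in CD8α+ cells the arrays of the genotypes did not overlap, as for 74.4% and 72.1% of all genes. The count in CD8α+ cells was 1 without wild type CD8α+ replicate 2, and 2 without any 1 of wild type CD8α- replicates 1 and 2, wild type CD8α+ replicate 1 and knockout CD8α+ replicates 1 and 2.

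Fscn1 fell from a mean of 14.97 ± 0.03 to 12.16 ± 0.19 in CD8α- cells and from 14.98 ± 0.12 to 12.73 ± 0.14 in CD8α+ cells. The changes were -2.81 (SE 0.18, limma, adjusted p = 0.000282) and -2.25 (SE 0.18, adjusted p = 0.000692), a 7.02-fold and a 4.76-fold fall. The 90 genes with a wild type CD8α- level of 14 or more had a median change of -0.31. Leaving out any 1 array kept both calls (adjusted p at most 0.00847), as did leaving out both arrays with neutrophil transcripts (-2.68 and -2.35, 0.00737 and 0.0132), and the scalings tried gave -2.97 to -2.15 in CD8α- cells and -2.38 to -1.57 in CD8α+ cells. A second Fscn1 probe set gave smaller changes of -1.20 (SE 0.44, adjusted p = 0.0685) and -1.02 (SE 0.44, adjusted p = 0.109), uncalled when each probe set was tested on its own, although its arrays did not overlap between genotypes. It read 7.79 and 8.02 (CD8α-) and 7.99 and 8.67 (CD8α+) in wild type, and 6.50 and 6.90 (CD8α-) and 7.94 and 6.68 (CD8α+) in the knockout. The 2 remaining Fscn1 probe sets were between 2.09 and 2.59 on every array. The probe sets above the filter thus gave one direction and different sizes.

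Cd200 fell by 3.21 on the log2 scale (SE 0.31, limma, adjusted p = 0.000844), 9.25-fold, in knockout CD8α- cells and by 1.19 (SE 0.31, adjusted p = 0.0227), 2.29-fold, in knockout CD8α+ cells. The call in CD8α- cells held without any 1 array (adjusted p at most 0.00770) and without both arrays with neutrophil transcripts (-3.37, 0.0132). The call in CD8α+ cells was lost without wild type CD8α+ replicate 1 (-1.32, 0.0734), wild type CD8α+ replicate 2 (-1.07, 0.107) or knockout CD8α+ replicate 1 (-0.997, 0.111), without both arrays with neutrophil transcripts (-0.997, 0.130), and with arrays centred on the median of all probe sets (-0.52, 0.206). B cells carry CD200, and most of the tested B cell markers given above fell in the same 2 comparisons. Their part in the fall of Cd200 was not tested.

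The 250 bases before the start of Fscn1 (chr5:142960105-142960354, plus strand, GRCm38.p6) and of Cd200 (chr16:45409054-45409303, minus strand) are shown as those of the 2 genes that fell in both subsets, with the same motifs in capitals.
Fscn1: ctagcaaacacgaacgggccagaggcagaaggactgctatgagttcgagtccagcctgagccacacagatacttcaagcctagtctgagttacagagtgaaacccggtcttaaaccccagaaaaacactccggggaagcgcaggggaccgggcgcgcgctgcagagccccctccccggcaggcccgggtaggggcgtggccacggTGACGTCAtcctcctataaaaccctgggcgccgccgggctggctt
Cd200: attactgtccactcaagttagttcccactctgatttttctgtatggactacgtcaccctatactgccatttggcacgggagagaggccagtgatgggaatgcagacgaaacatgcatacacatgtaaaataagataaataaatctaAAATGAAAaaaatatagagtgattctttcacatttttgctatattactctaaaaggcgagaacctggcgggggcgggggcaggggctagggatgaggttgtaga
Fscn1 holds 1 TGACGTCA match, 45 bases before the start, which 1.55% of windows hold, and Cd200 holds 1 AANNGAAA match 104 bases before it. The 2 windows share no motif among those searched.

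**Figure D4:**
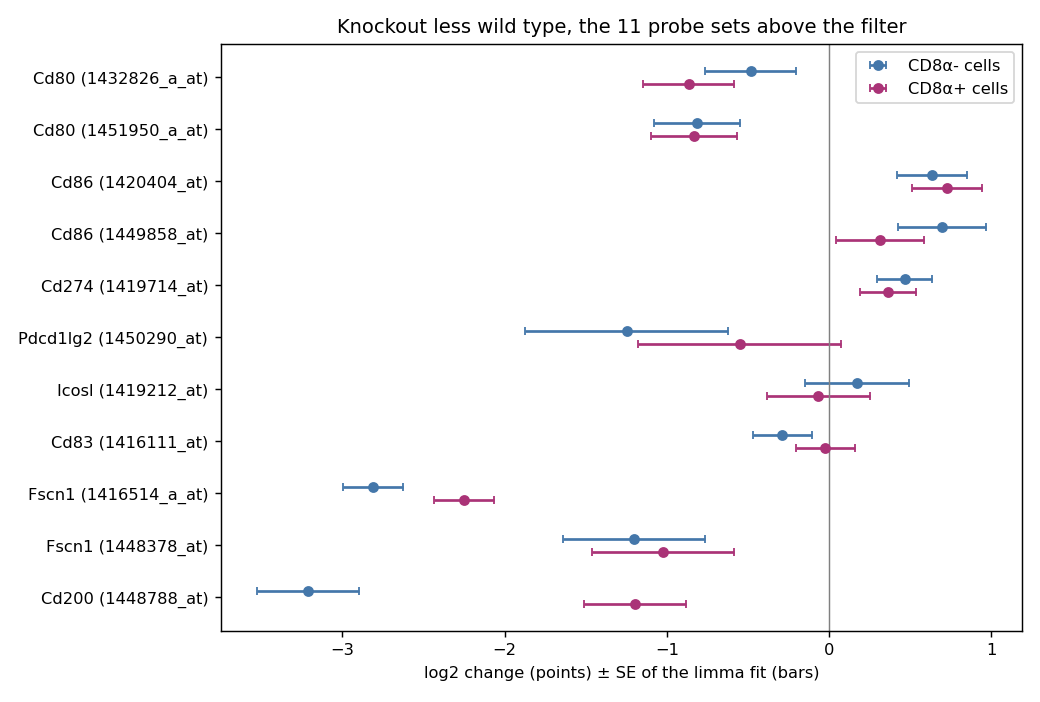
Log2 change in knockout against wild type cells (horizontal axis, points) with the SE of the limma fit (bars) for the 11 probe sets above the filter, in each subset. The brighter Fscn1 probe set lies at -2.81 and -2.25 and the dimmer at -1.20 and -1.02, Cd200 lies at -3.21 and -1.19, and Cd86 is the gene above 0 by the most.

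The remaining genes differed less between genotypes. Cd86 rose by 0.64 (SE 0.21, limma, adjusted p = 0.0480) in knockout CD8α- cells and by 0.72 (SE 0.21, adjusted p = 0.0340) in knockout CD8α+ cells. These calls were close to the threshold, and their size followed the scaling: quantile normalization gave 0.41 (0.135) and 0.56 (0.0610), centring on the tested genes 0.48 (0.130) and 0.60 (0.0724), and centring on all probe sets 1.29 (0.00213) and 1.40 (0.00167). The CD8α- call was lost without any 1 wild type array (adjusted p 0.0688 to 0.199) or knockout CD8α- replicate 1 (0.186), and with the replicate number as a block (0.0669). The CD8α+ call was lost without any 1 wild type array (0.0576 to 0.137) or knockout CD8α+ replicate 2 (0.142). Without both arrays with neutrophil transcripts the Cd86 changes were 0.83 and 0.89. On the other Cd86 probe set the changes were 0.70 (adjusted p = 0.0852) and 0.31 (adjusted p = 0.402). Cd80 changed by -0.87 (SE 0.28, adjusted p = 0.0456) in knockout CD8α+ cells and by -0.48 (SE 0.28, adjusted p = 0.200) in CD8α- cells. The Cd80 call was lost without any 1 of wild type CD8α- replicates 1 and 2, wild type CD8α+ replicate 2 and both knockout CD8α+ replicates (adjusted p 0.0665 to 0.206), without both arrays with neutrophil transcripts (-0.87, 0.123), with the block (0.0636), under quantile normalization (0.0533) and with arrays centred on the median of all probe sets (-0.19, 0.562). Its dimmer probe set gave -0.82 (adjusted p = 0.0491) and -0.83 (adjusted p = 0.0484).

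Cd274 was 0.47 (SE 0.17, limma, adjusted p = 0.0602) and 0.36 (SE 0.17, adjusted p = 0.126) above wild type in the knockout, with no overlap of arrays. Centring on all probe sets gave 1.12 (0.00159) and 1.04 (0.00236), and centring on the tested genes 0.31 (0.212) and 0.24 (0.339). Both were called with no filter (0.00665 and 0.0160), and the CD8α- difference with an offset of 16 (0.0487) or a floor of 5 (0.0456). Without both arrays with neutrophil transcripts the Cd274 changes were 0.51 and 0.43. Icosl differed by 0.17 (95% interval -0.57 to 0.92) and -0.07 (-0.81 to 0.68) and Cd83 by -0.29 (-0.71 to 0.13) and -0.02 (-0.45 to 0.40). Centring on all probe sets turned Cd83 to 0.37 (0.121) and 0.65 (0.0197), the second of them a call. Pdcd1lg2 was at -1.25 (SE 0.61, adjusted p = 0.144) in CD8α- cells. Without knockout CD8α- replicate 2, the array with neutrophil transcripts, the knockout value left was 4.62, below 5, which bounds the fall at 3.61-fold or more (adjusted p = 0.0147), and without replicate 1 the change was -0.27 (adjusted p = 0.651). In CD8α+ cells Pdcd1lg2 was below 5 in both genotypes, so no direction is read from its values.

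The tested partners of these ligands were few. Of the receptors and binding partners 3 of 9 could be tested. Of these, Icos, the receptor of ICOSL, stood at 10.26 to 11.02 in wild type and 6.09 to 9.66 in the knockout and changed by -2.96 (SE 0.78, limma, adjusted p = 0.0242) in CD8α+ cells, where the knockout arrays were at 8.62 and 6.09. Without the second of these it was -1.70 (0.0665), and the call was also lost without any 1 wild type array (0.0511 to 0.104). T cells carry Icos, and the T cell markers Cd5 and Cd2 were lower in the same comparison. The log2 of the summed level of the whole T cell list was 7.58 to 8.44 in wild type and 6.28 to 7.89 in the knockout. The part of T cells in the change was not tested. Cd200r1, the inhibitory receptor of CD200, was higher in the knockout in CD8α- cells by at least 3.79-fold (adjusted p = 0.00209) and rose by 1.17 (SE 0.38, adjusted p = 0.0466) in CD8α+ cells, a call lost without any 1 of 5 arrays (both wild type CD8α-, wild type CD8α+ replicate 2 and both knockout CD8α+; 0.0693 to 0.221). With the mean of its probe sets these were 1.01 (0.0407) and -0.059 (0.899). Rgmb, which binds PD-L2, changed by -1.62 (SE 0.30, adjusted p = 0.00716) in CD8α+ cells. Cd28, Ctla4 and Pdcd1 were at or below 3.01 on all 8 arrays. Of the other B7 and butyrophilin genes 1 of 7 could be tested, Vsir, which encodes the T cell inhibitor VISTA and rose by 0.64 (SE 0.19, adjusted p = 0.0355) in knockout CD8α- cells. That call was lost without any 1 wild type or knockout CD8α- array (0.0530 to 0.144), and with quantile normalization (0.43, 0.101) or centring on the tested genes (0.48, 0.0856). The mean of its probe sets gave 1.30 (0.00321). Of 5 tested genes that govern how long B7 proteins stay at the surface, none was called between the subsets by limma, and 1 was higher in the knockout in each subset. These were Cmtm4, a partner that stabilises PD-L1, at least 2.08-fold higher in CD8α- cells (0.0136), and Hip1r, which routes PD-L1 to lysosomes, by 0.996 (SE 0.28, adjusted p = 0.0293) in CD8α+ cells. The Cmtm4 call was lost without wild type CD8α- replicate 1 (1.33, 0.0566) or knockout CD8α- replicate 2 (1.69, 0.0679). That of Hip1r was lost without wild type CD8α+ replicate 1 (0.63, 0.130), either wild type CD8α- array (0.0564 and 0.0561) or either knockout CD8α+ array (0.0997 and 0.0974), and with the mean of its probe sets (0.046, 0.853). Without both arrays with neutrophil transcripts the calls of Vsir (0.0751), Cmtm4 (0.105), Hip1r (0.105) and Cd200r1 in CD8α+ cells (0.104) were lost. Marchf1, the ubiquitin ligase that removes CD86, stood at 10.82 to 11.94 on the 8 arrays without a call.

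Genes of mature and migratory dendritic cells, the state in which fascin and the B7 ligands are high, were set beside the 8 genes. Between the wild type subsets 7 of 21 tested were higher in CD8α+ cells and 2 lower, with no call for 12, and in the knockout 8 were higher and 2 lower, with no call for 11. Of all genes tested, 9.23% passed as higher and 7.87% as lower between the wild type subsets, and 11.1% and 10.7% between those of the knockout. The medians of the list were 0.24 and 0.19. Il12b, the shared subunit of IL-12 and IL-23, was below 5 on each CD8α- array and rose at least 19.1-fold in wild type (limma, adjusted p = 0.00015) and at least 30.5-fold in the knockout (0.000123). The chemokine Ccl22 rose by 4.07 (SE 0.43, 0.000929) in wild type and at least 11.2-fold in the knockout (0.000669), and Bcl2l14, a BCL2 family gene, by 4.70 (SE 0.32, 0.000176) and at least 11.8-fold (0.000377). Relb, an NF-kB subunit active in mature dendritic cells, changed by -1.37 (SE 0.25, adjusted p = 0.0107) and -1.26 (SE 0.25, 0.0134). Its wild type call was lost without either CD8α- array (0.0811 and 0.0624) or CD8α+ replicate 1 (0.0661), and its knockout call without replicate 2 of either subset (0.0556 and 0.0679) or both arrays with neutrophil transcripts (0.0519). Ccr7, the receptor that guides mature dendritic cells to lymph nodes, was 1.18 (SE 0.47, adjusted p = 0.142) and 1.27 (SE 0.47, 0.101) above CD8α- cells without a call. The wild type count of 9 calls was 5 without wild type CD8α- replicate 1, and the knockout count of 10 was 6 without the arrays with neutrophil transcripts.

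Between genotypes, with the values as deposited, 0 of these 21 genes were higher in knockout CD8α- cells, with 5 lower and the other 16 not called, and in CD8α+ cells 7 fell, 0 rose and 14 had no call. Among all genes 17.1% and 16.1% were lower and 40.5% and 36.9% were called, so that the share of the list called, 5 and 7 of 21, was below that of all genes. Its medians were -0.58 and -0.64, against 0.14 and 0.09 over all genes. Slco5a1, an organic anion transporter family gene, changed by -2.76 (SE 0.28, limma, adjusted p = 0.000942) and -2.28 (SE 0.28, 0.00189), and Marcksl1, an actin regulator, by -2.06 (SE 0.22, 0.00108) and -1.50 (SE 0.22, 0.00312). Serpinb6b, a protease inhibitor, changed by -1.71 (SE 0.22, 0.00197) and -0.83 (SE 0.22, 0.0261). Tnfrsf4, a costimulatory receptor, changed by -1.67 (SE 0.34, 0.00898) in CD8α- cells, and the IL-15 receptor chain Il15ra by -2.09 (SE 0.46, 0.0126) in CD8α+ cells. The Serpinb6b call in CD8α+ cells was lost without wild type CD8α+ replicate 2 (-0.56, 0.106) or either knockout CD8α+ array (0.108 and 0.0625) and with centring on all probe sets (-0.15, 0.606), the Tnfrsf4 call without either wild type CD8α- array (0.0527 and 0.0581), and the Il15ra call without wild type CD8α+ replicate 2 (0.0522) or knockout CD8α+ replicate 1 (0.0686). All 3 were lost without both arrays with neutrophil transcripts (0.0598 to 0.128). Ccr7 was at 0.08 (SE 0.47) and 0.16 (SE 0.47), and Cd40 at -0.11 (SE 0.20) and -0.47 (SE 0.20), uncalled. Without both arrays with neutrophil transcripts 3 and 4 genes were lower and 0 higher. Without wild type CD8α- replicate 1 or replicate 2 there were 3 calls in CD8α- and 4 in CD8α+ cells, and in CD8α+ cells there were 3, 1 of them higher, without wild type CD8α+ replicate 2 and 4 without knockout CD8α+ replicate 2. With arrays centred on the median of all probe sets, 6 were higher and 4 lower in CD8α- cells and 3 and 3 in CD8α+ cells.

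**Figure D5:**
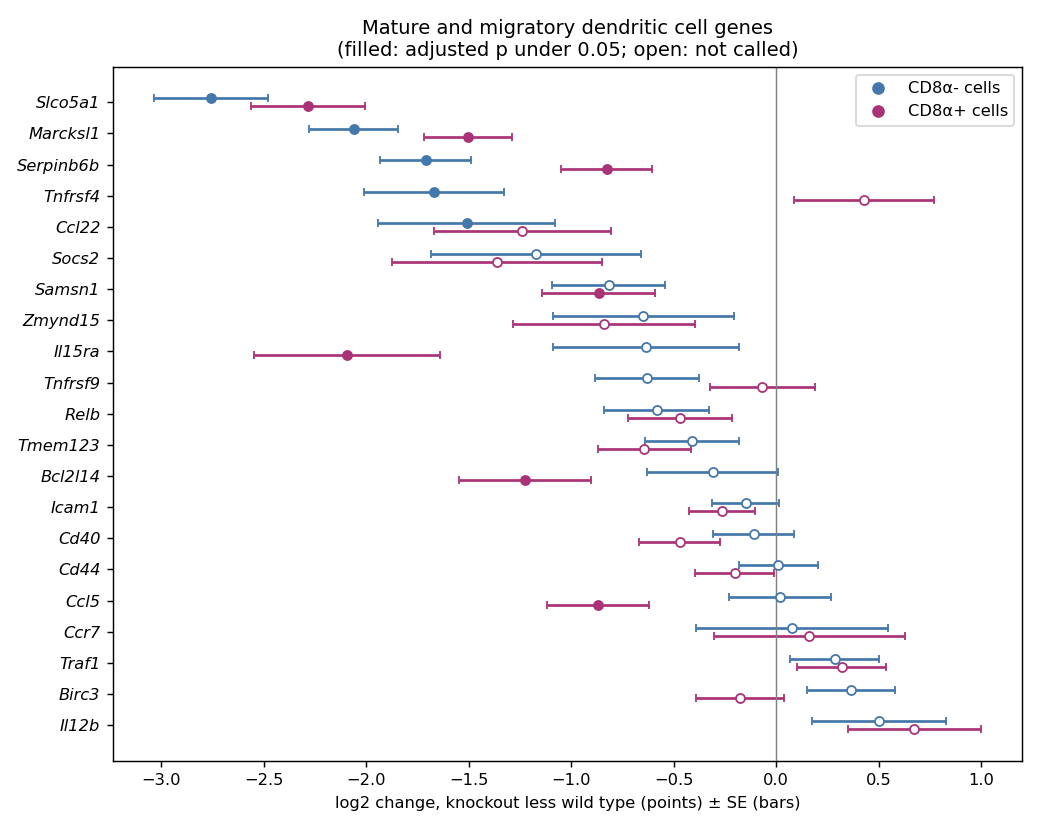
Log2 change in knockout against wild type cells (horizontal axis, points) with the SE of the limma fit (bars) for the 21 tested genes of mature and migratory dendritic cells, filled where called. With the values as deposited all filled points, 5 in CD8α- and 7 in CD8α+ cells, lie below 0 (centring on all probe sets turns some, as given above), with Slco5a1 lowest at -2.76 and -2.28, and Il12b at 0.50 and 0.67 is open.

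Of 18 tested upstream receptors and transcription factors, 7 were higher and 0 lower in knockout CD8α- cells, with 11 not called, against 23.4% of all genes higher and 40.5% called. In CD8α+ cells 4 were higher and 2 lower, with 12 not called, against 20.8% and 16.1% of all genes. Between the genotypes, and over both directions together, the list was thus called about as often as all genes or less. All 7 calls in CD8α- cells were in the higher direction. The interferon-gamma receptor chain Ifngr1, whose signal induces Cd274, rose by 1.13 (SE 0.30, limma, adjusted p = 0.0220; lost without either wild type CD8α- array or knockout CD8α- replicate 1, 0.0881 to 0.107) and 1.45 (SE 0.30, 0.0101; lost without wild type CD8α+ replicate 1 or knockout CD8α+ replicate 2, 0.0562 and 0.0531), and the type I interferon receptor chain Ifnar1 by 1.05 (SE 0.18, 0.00528) and 0.93 (SE 0.18, 0.00895). The mean of its probe sets gave Ifnar1 0.57 (0.0574) and 0.17 (0.522), and Ifngr1 lost its CD8α- call without both arrays with neutrophil transcripts (0.0532). Irf1, a transcription factor that acts at Cd274, rose by 1.62 (SE 0.28, 0.00513) in CD8α- cells, and Csf2ra by 1.11 (SE 0.20, 0.0062). Cd274 itself was not called between the genotypes with the values as deposited, and its change followed the scaling. The bearing of these genes on Cd274 was not tested. The 2 genes of the list that were lower in knockout CD8α+ cells were Irf4, at -2.47 (SE 0.22, 0.000849), the largest called change there, and Csf2rb, at -1.05 (SE 0.22, 0.0113). No other setting was run for Csf2ra or Csf2rb. Between the subsets 1 of the 18 was higher in CD8α+ cells of each genotype, Irf8 (3.79, SE 0.56, 0.00396 and 2.58, SE 0.56, 0.0173; the second lost without either knockout CD8α+ array, 0.0716 and 0.0880, and 1.70, 0.0428, without knockout CD8α- replicate 1), and 2 were lower in wild type and 5 in the knockout. Irf4, a transcription factor of CD8α- dendritic cells, was the lowest of these, at -2.51 (SE 0.22, 0.000451) and -4.69 (SE 0.22, 3.627e-05). Of all genes, 9.23% were higher and 7.87% lower in CD8α+ cells of wild type, and 11.1% and 10.7% in those of the knockout.

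Across the 8 arrays, which hold 4 groups and so few independent patterns, Cd274 correlated with Icosl at r = 0.93 and with Pdcd1lg2 at 0.84, and Cd86 with Pdcd1lg2 at -0.97. Pdcd1lg2 was below 5 on every CD8α+ array and on knockout CD8α- replicate 1, so its r values rest in part on values below the filter level. Pglyrp2 and Tbx21, named below as most like it, were also below 5 on every CD8α+ array. Fscn1 correlated with Cd200 at 0.81 and with Cd274 at -0.28. Among all genes tested, the highest Pearson r with Cd86 was that of Insig2 (0.996) and Nsmce1 (0.993), with Cd274 that of Cep63 (0.995) and Marveld1 (0.993), with Cd80 that of Eri1 (0.996) and Trim12a (0.981), and with Pdcd1lg2 that of Pglyrp2 (0.974) and Tbx21 (0.973). Icosl was most like Abca7 (0.977) and Dennd1c (0.976), Cd83 most like Gyg (0.981) and Coa8 (0.978), and Cd200 most like Wdr37 (0.979) and Nck2 (0.974). Fscn1 was most like Aire (0.997) and E2f3 (0.996). Aire lay at 5.23 to 5.24 on all wild type arrays and 3.14 to 3.65 on the knockout arrays, and E2f3 at 8.19 to 8.20 and 7.15 to 7.31.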

How the data were processed

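Biotinylated targets from total RNA of 8 sorted samples were hybridised to Affymetrix mouse arrays, per the labels. The authors deposited log2 expression summaries per probe set. GCRMA and affy are the tools in the submitters' processing notes. Their versions, and how the arrays were grouped for normalization, are not given in any of the sources used here. GCRMA fits its background by probe sequence, so values near the lowest level carry little information and have no order across the genotypes.

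Genes were named from GEO's platform annotation (34945 probe sets with 1 gene, 932 with several, 9160 with none and 64 array controls, which were left out). Values were used as deposited. Each gene was represented by its brightest probe set above the filter (8763 genes), or each of 14603 probe sets was tested on its own. All 8 arrays entered one linear model with a mean per group (limma 3.58.1, R 4.3.3, eBayes without trend, leaving 4 degrees of freedom), with 2-sided tests, with Benjamini-Hochberg adjustment over all genes tested and calls at an adjusted p under 0.05. Where the lower group was below 5 on each array, the fold is a bound against 5. The fit was tested on simulated data. The number of arrays limits the precision. Promoter sequences came from RefSeq (GRCm38.p6), where 6 of the 8 genes matched. Figures were drawn with matplotlib 3.10.9.

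The members, lists and tests were chosen with earlier results of these data known. Named from the lists were up to 4 called genes with the largest change per comparison, and a few others (Ccr7, Cd40, Marchf1, Cd28, Ctla4, Pdcd1, Cd79a, Pax5, Cd5, Cd2, Cd3d, Cd3e, Cd3g, Ngp) were named after their values were seen. The likeness rule named the 2 genes of highest Pearson r with each member. Other settings tried were scaling (quantile, or arrays centred on a median), filters, an offset of 16, a floor of 5, how probe sets were combined, limma-trend, array weights, the compared groups alone, the replicate number as a block, a log2 change of at least 1, and leaving out each array. Leaving out the 2 arrays with neutrophil transcripts, centring on the tested genes, and settings for single genes outside the 8 were added after seeing the data. Exact permutation of 2 against 2 arrays was not used, since it cannot pass the threshold.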

Additional observations from a re-analysis of the deposited data

How the results depend on the processing

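Over 23 other settings, 8 of which left out 1 array, the calls of Cd86 and Cd274 between the subsets and of Fscn1 in both subsets and Cd200 in CD8α- cells between the genotypes were kept in every one, while those of Pdcd1lg2, Icosl and Cd80, and of Cd86 and Cd200 elsewhere, were not all kept. Cd200 between the knockout subsets also kept its call. The number of the 8 genes called between the wild type subsets (4) was 2 with no filter and 2 to 4 with 1 array left out. Between the knockout subsets (6) it was 3 with no filter, 3 with the compared groups alone and 3 to 6 with 1 array left out. In CD8α+ cells of the 2 genotypes (4) it was 2 under quantile normalization, 2 with the compared groups alone, 2 with a log2 change of at least 1 and 1 to 4 with 1 array left out. In CD8α- cells (3) it stayed between 2 and 4. Signs changed as follows, for differences not called with the values as deposited. Quantile normalization gave -0.024 for Icosl in knockout against wild type CD8α- cells and 0.10 for the Cd274 interaction. Centring on all probe sets, which shifts the knockout upward by construction, gave 0.18 for Cd80 and 0.37 for Cd83 in CD8α- cells, and 0.12 for Pdcd1lg2 (below 5 in both genotypes, so not read), 0.61 for Icosl and 0.65 for Cd83 (adjusted p = 0.0197, a call) in CD8α+ cells. The mean of the probe sets gave -0.15 for the Cd86 interaction. Centring on the tested genes gave -0.033 for Fscn1 between the wild type subsets. Without the arrays with neutrophil transcripts, Icosl was at -0.18 in CD8α- cells, Cd83 at 0.022 in CD8α+ cells and the Icosl interaction at 0.10. With 1 array left out, the ranges that crossed 0 were -0.069 to 0.093 for Fscn1 between wild type subsets, -0.18 to 0.53 for Icosl in CD8α- cells, -0.31 to 0.18 for Icosl and -0.18 to 0.13 for Cd83 in CD8α+ cells, and for the interaction -0.10 to 0.28 (Cd86), -0.28 to 1.68 (Pdcd1lg2) and -0.59 to 0.11 (Icosl). Where a value is not explained by fewer arrays or genes, the cause was not tested. Arrays with the same replicate number did not deviate together (correlations of -0.15 to 0.11 between groups), so the numbers give no pairing. With the replicate block 5, 6, 2 and 3 of the 8 genes were called in the comparisons of subsets in wild type and knockout and of genotypes in CD8α- and CD8α+ cells, and 0 for the interaction. Of the 21 mature and migratory genes, calls between the knockout subsets (10) were 6 with no filter and 5 with the compared groups alone. In CD8α- cells of the genotypes (5) they were 8 with arrays centred on the tested genes and 8 with the compared groups alone, and in CD8α+ cells (7) they were 4 with a log2 change of at least 1 and 2 with the compared groups alone.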
